A study of Homo sapiens with 12 samples.

Results

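The 35 genes described here were the rows of the counts table with the symbols of 20 glycolysis genes, 13 targets of the hypoxia-inducible factors (HIFs) and the genes of both HIF alpha subunits studied, HIF1A and EPAS1, out of 19225 entries in all. They were chosen by name, with no measured value in the rule, though with earlier results of these data known. All 35 passed the filter on low counts that left 14360 genes to test. HN6 and HN30 are established cell lines of oral squamous cell carcinoma (OSCC). Each was transfected in 6-well plates with a scrambled siRNA (NC) or with 1 of 2 siRNAs against FAT1, an atypical cadherin, using Lipofectamine RNAiMAX, and polyadenylated RNA was sequenced 24 h later. The 6 conditions were HN6 NC, HN6 siFAT1-1, HN6 siFAT1-2, HN30 NC, HN30 siFAT1-1 and HN30 siFAT1-2, with 2 repeats each, made at separate times. The sample titles call the knockdown groups short hairpins while the descriptions name siRNAs. Levels are CPM, counts scaled to the size of the library after adjustment by the trimmed mean of M values (TMM). No oxygen tension or glucose supply was given in the labels, so none of the conditions was labelled hypoxic.

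Glycolysis splits glucose into pyruvate in the cytosol, through transport by SLC2A1, phosphorylation by hexokinases, the commitment step of phosphofructokinase and a payoff phase that ends with pyruvate kinase, after which LDHA makes lactate and SLC16A3 exports it. When oxygen is short, HIF1A or EPAS1 protein is no longer hydroxylated and degraded, pairs with ARNT and binds hypoxia response elements, raising most glycolysis genes as well as genes of pH control, angiogenesis, mitophagy and collagen modification. This control acts mainly on the stability of the HIF alpha proteins, so the mRNA of HIF1A is a poor guide to the activity of the factor. Squamous carcinoma cells are known for high rates of glycolysis even in air.

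The core letters of the hypoxia response element were looked up in the RefSeq promoters of the members, because the element is what the glycolysis genes and the HIF targets are known to share. RefSeq promoter windows of 300 bases on GRCh38.p14, of which 250 lie before the start of the transcript, were given for 32 of the 35 members. ACGTG or GCGTG was searched on both strands, each match being counted, so that CACGTG counts on both strands. At least 1 window held the letters in 19 of 20 glycolysis genes and 8 of 10 HIF targets, where 52.4% of all genes with a window had one. PGAM1, EGLN3 and P4HA2, with 1 window each, held none. The 20 glycolysis genes had 40 windows, and all 27305 genes had 35116, so a glycolysis gene had more chances of a match. Over windows, of which a gene can have several, the share was 73.2% of the 56 windows of members and 48.4% of the 35116 windows of all genes. Stretches of 60 bases before the start are shown, each with a match and outside annotated exons, for some of the genes described below. The match is in capitals and each is read 5′ to 3′ on the strand of its gene. These are PFKP at chr10:3069022-3069081 (plus strand), LDHA at chr11:18394453-18394512 (plus), GAPDH at chr12:6535156-6535215 (plus), BNIP3 at chr10:131982018-131982077 (minus), ANGPTL4 at chr19:8363905-8363964 (plus) and ADM at chr11:10304944-10305003 (plus).
PFKP: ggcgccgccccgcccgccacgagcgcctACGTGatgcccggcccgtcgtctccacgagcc
LDHA: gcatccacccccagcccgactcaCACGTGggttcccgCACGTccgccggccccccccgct
GAPDH: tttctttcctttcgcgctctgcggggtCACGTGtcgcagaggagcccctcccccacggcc
BNIP3: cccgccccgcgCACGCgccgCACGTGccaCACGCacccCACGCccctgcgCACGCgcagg
ANGPTL4: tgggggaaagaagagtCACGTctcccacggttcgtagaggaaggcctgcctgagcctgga
ADM: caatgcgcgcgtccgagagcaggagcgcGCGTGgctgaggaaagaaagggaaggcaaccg
BNIP3 held 6 matches in its stretch, LDHA 3 and GAPDH 2, while PFKP, ANGPTL4 and ADM held 1 each. PFKP had 4 windows, 2 of them with the letters. A stretch before another of its starts, at chr10:3104548-3104607 and not shown, held 3 matches. A match describes the letters only and is not a bound site.

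The libraries were checked before the genes were compared. FAT1 lay at 56.8 and 66.8 CPM in the HN6 NC repeats and at 7.60, 13.5, 13.2 and 21.4 CPM in the HN6 knockdown libraries, and at 13.6 and 14.8 against 4.85, 6.25, 10.8 and 7.75 CPM in HN30, lower than NC in all 8 knockdown libraries. Library totals ran from 26430049 to 47639010 counts. Of 10 squamous epithelial markers 9 had counts in every library, and KRT14 was at 0 in 5 libraries with at most 2.43 CPM. Of 12 markers of leukocytes, endothelium, fibroblasts and muscle, PTPRC, CD3E, PECAM1, COL1A2, DCN and DES were at 0 in some libraries with no more than 4.43 CPM. The others had counts in every library. COL1A1 reached 146, CD68 121, ACTA2 57.0, PDGFRB 9.35, CDH5 6.52 and VWF 1.53 CPM. The log2 levels of the repeats of HN6 NC had a Pearson correlation across genes of 0.947, the lowest of the 6 conditions, against up to 0.99.

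The second HN6 NC library stood apart by GC content, the share of G and C in a transcript. Over the quintile of genes with the lowest GC content, the median difference of repeat 2 minus repeat 1 was -0.96 on the log2 scale in HN6 NC, against medians of -0.061 to 0.30 in the other quintiles. In the other 5 conditions the medians of all quintiles lay between -0.22 and 0.23. The comparison of siFAT1-2 with NC was also tilted, from a median log2 fold change of 0.47 in the lowest quintile to -0.26 in the highest, while siFAT1-1 against NC ran between -0.068 and 0.033. The glycolysis genes had a median GC content of 54.3%, the HIF targets 46.3% and all genes 49.1%. Values with a GC correction, an alternative chosen after seeing the data, and values without the second HN6 NC library are therefore given beside the results that rest on them.

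**Figure D1:**
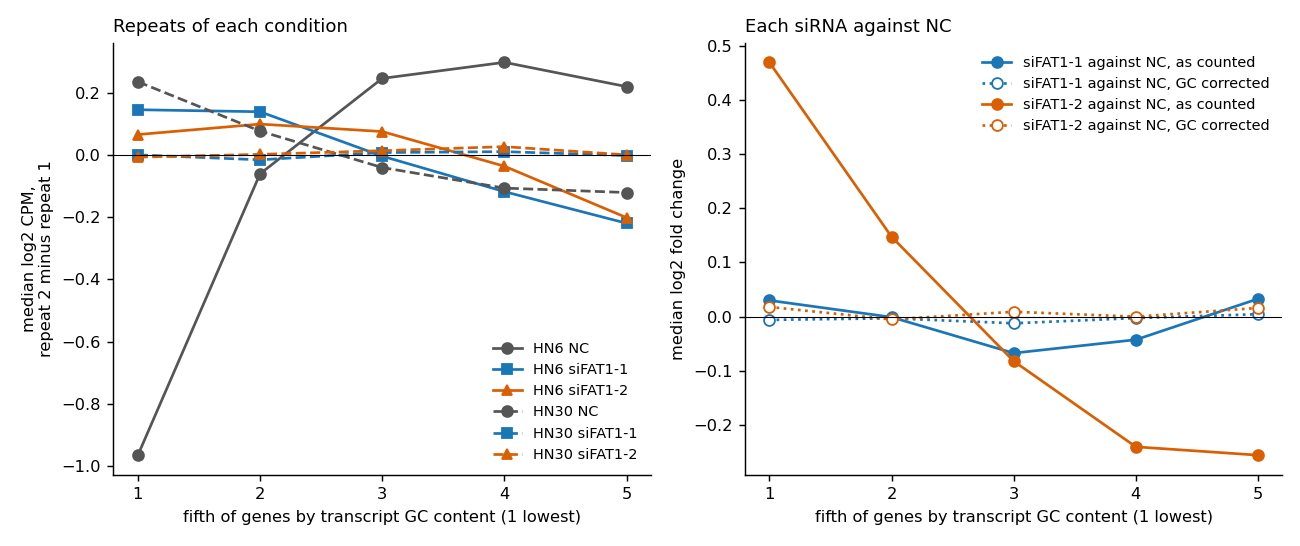
Median log2 difference between the repeats of each condition (left, 6 lines) and median log2 fold change of each siRNA against NC (right, as counted and after GC correction) for genes split into quintiles by transcript GC content on the x axis. The HN6 NC line starts at -0.96 in the lowest quintile, and the siFAT1-2 line falls from 0.47 to -0.26 before correction.

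The glycolysis genes were among the most abundant transcripts of both lines. The 20 together held between 1.66% and 3.09% of all counts of a library (median 2.40%), and the 13 HIF targets between 0.0990% and 0.348%. Per kilobase of annotated exon, and as the mean of 6 libraries, GAPDH, which oxidises glyceraldehyde-3-phosphate, led with 2418 CPM per kb in HN6 and 2115 in HN30. ENO1, the ubiquitous enolase, followed with 851 and 593 CPM per kb. On the same scale the regulatory kinase PDK1, which switches off pyruvate dehydrogenase, stood at only 4.27 and 2.97 CPM per kb. Among the HIF targets ANGPTL4, a secreted inhibitor of lipoprotein lipase, had the highest level in HN6 with 92.5 CPM per kb. In HN30 it was NDRG1, a stress-induced gene, with 82.8 CPM per kb, and the ankyrin repeat gene ANKRD37 was the lowest in both lines, at 0.763 and 0.465 CPM per kb. The exons of all isoforms were counted in the length, which lowers the level of genes with many isoforms.

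Both cell lines used ALDOA and ENO1 as their main aldolase and enolase, and differed most in the less abundant paralogs ALDOC and ENO2. Between HN6 and HN30, over all 12 libraries with siRNA as a term, 18 of the 35 members differed at an adjusted p under 0.05 by edgeR's quasi-likelihood test, a smaller share than the 56.6% of all genes tested that did. Of the glycolysis genes 6 were higher and 7 lower in HN6, and of the HIF targets 3 were higher and 2 lower, where 28.6% of all genes were higher and 27.9% lower. With the 4 NC libraries alone 3 members passed, and the share of all genes in that fit is not given here.

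The aldolases showed the widest gap. ALDOC, the aldolase best known from brain, lay in HN6 at 2.25 and 2.003 CPM with NC, 1.47 and 1.62 CPM with siFAT1-1 and 1.13 and 1.12 CPM with siFAT1-2. In HN30 it lay at 49.2 and 75.7 CPM with NC, 60.8 and 52.4 CPM with siFAT1-1 and 47.4 and 79.9 CPM with siFAT1-2, so that the lines did not overlap. Between HN6 and HN30 ALDOC had a log2 fold change of -5.29 ± 0.23 (SE), with an edgeR quasi-likelihood P of 2.04e-11 and a Benjamini-Hochberg adjusted p of 7.72e-09. ALDOA, the main aldolase of most tissues, was far more abundant in both lines, at 478 and 571 CPM per kb against 0.612 and 23.3 for ALDOC, and its log2 fold change was -0.27 ± 0.14 (SE) with an adjusted p of 0.107, edgeR quasi-likelihood.

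ENO2, the neuronal enolase, lay in HN6 at 43.6 and 26.2 CPM with NC, 20.6 and 21.3 CPM with siFAT1-1 and 26.7 and 19.7 CPM with siFAT1-2. In HN30 the values were 84.4 and 118 CPM with NC, 121 and 91.2 CPM with siFAT1-1 and 79.3 and 124 CPM with siFAT1-2, with no overlap between the lines. The log2 fold change of ENO2 was -2.003 ± 0.21 (SE), with an edgeR quasi-likelihood P of 4.13e-07 and a Benjamini-Hochberg adjusted p of 7.43e-06. PKM, the pyruvate kinase that makes the last ATP of the pathway, went the other way, at 7478 and 8174 CPM with NC, 7476 and 6179 CPM with siFAT1-1 and 4774 and 4963 CPM with siFAT1-2 in HN6. In HN30 PKM lay at 2967 and 2908 CPM with NC, 3439 and 3459 CPM with siFAT1-1 and 2358 and 2859 CPM with siFAT1-2, again without overlap. Its log2 fold change was 1.10 ± 0.12 (SE), with an edgeR quasi-likelihood P of 7.33e-07 and a Benjamini-Hochberg adjusted p of 1.12e-05. The share of all genes without overlap between the lines is not given here.

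Calls in both directions were spread over the pathway. The glucose importer SLC2A1 (GLUT1) and the lactate exporter SLC16A3 (MCT4) were lower in HN6, with log2 fold changes against HN30 of -0.84 and -0.94, as were PFKFB3, PFKP and HK1, with -0.90, -0.53 and -0.32. PGK1, TPI1, ENO1, PGAM1 and PDK1 were higher in HN6, with log2 fold changes of 0.91, 0.53, 0.49, 0.46 and 0.52. Each of these 10 genes had an adjusted p under 0.05 by edgeR's quasi-likelihood test. With 1 library left out at a time, the calls of HK1 and PDK1 were lost in 9 and 6 of the 12 cases, and those of the other 8 in none.

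Of the HIF targets that differed between the lines, NDRG1 was lower in HN6 (-1.58, adjusted p = 0.00849, edgeR), as was P4HA1, a subunit of collagen prolyl hydroxylase (-0.52, adjusted p = 0.0174). ADM, the vasodilator peptide adrenomedullin, was higher in HN6 (1.18, adjusted p = 0.0136, edgeR), as were the mitophagy receptor BNIP3L (0.91, adjusted p = 0.0319) and P4HA2 (0.42, adjusted p = 0.043). P4HA1 lay at 134 and 75.9 CPM with NC, 124 and 122 CPM with siFAT1-1 and 100.4 and 98.5 CPM with siFAT1-2 in HN6 and at 109.5 and 139 CPM with NC, 246 and 198 CPM with siFAT1-1 and 118 and 158 CPM with siFAT1-2 in HN30. Its lines overlapped, as HN6 NC repeat 1 exceeded both HN30 repeat 1 libraries with NC and siFAT1-2. The calls of BNIP3L, P4HA2 and P4HA1 were lost in 7, 9 and 2 of the 12 cases with a library left out, and those of NDRG1 and ADM in none.

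**Figure D2:**
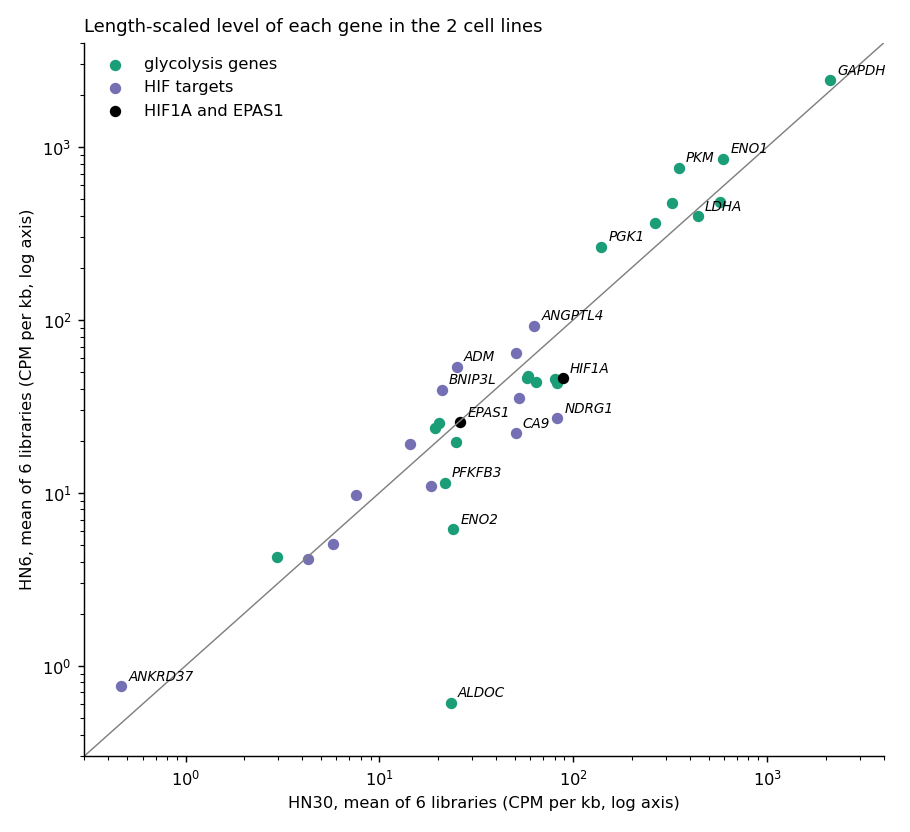
Mean level of each of the 35 genes over the 6 libraries of HN6 (y axis) against the 6 of HN30 (x axis), in CPM per kilobase of exon on log axes, with the line of equal levels. ALDOC and ENO2 lie farthest below the line, at 0.612 and 6.15 CPM per kb in HN6 against 23.3 and 24.05 in HN30.

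Knockdown of FAT1, taking both siRNAs and both lines together, moved none of the 35 members past the threshold. By edgeR's quasi-likelihood test 0 members had an adjusted p under 0.05, where 0.522% of all genes tested did, and DESeq2 and limma-voom called 0 too. At an unadjusted P under 0.05 there were 3 by each of edgeR, DESeq2 and limma-voom, where 14.2% of all genes had one by edgeR. Those of edgeR were TPI1, triose phosphate isomerase (-0.45 ± 0.15 (SE) on the log2 scale), GAPDH (-0.38 ± 0.17 (SE)) and P4HA2 (0.48 ± 0.20 (SE)). Of the glycolysis genes 16 of 20 lay below 0, at a median of -0.16 on the log2 scale. The HIF targets had a median of 0.13, with 9 of 13 above 0, and all genes one of 0.022. With 1 library left out the HIF target median ran from -0.053 without the first HN30 NC library to 0.47 without the first HN6 NC library, and the glycolysis median from -0.24 to -0.088 without the same libraries, so that the direction over the HIF targets rested on 1 library. The spread left in this fit was wide for some members: the SE of the log2 fold change was 0.59 for CA9 and 0.18 for SLC2A1. In bulk RNA, fewer cells and less RNA per cell cannot be told apart. This fit had terms for cell line and knockdown only. Its SE and p-values therefore hold the spread between repeats and also the difference between the siRNAs. They hold any difference of the knockdown effect between the lines too.

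The siRNAs differed from each other in the glycolysis genes. With siFAT1-2, 17 of 20 glycolysis genes lay below NC (median log2 fold change -0.38, all genes -0.0025), and 3 fell at an adjusted p under 0.05 by edgeR, where 7.12% of all genes fell and 11.3% changed in either direction. With siFAT1-1 the median was 0.051 and 0 passed, where 3.15% of all genes did. Without the first HN30 NC library that median was -0.069, and with siFAT1-2 it stayed between -0.51 and -0.29 over the 12 libraries left out in turn. For siFAT1-1 against NC, at an unadjusted P under 0.05 edgeR gave 4 members (18.8% of all genes), DESeq2 6 and limma-voom 4, and adjusted calls numbered 3 with DESeq2 and 0 with limma-voom. These comparisons share their NC libraries. In the direct test of siFAT1-1 against siFAT1-2, 5 glycolysis genes were higher with siFAT1-1 and 0 lower, where 9.62% of all genes were higher. No HIF target passed in any of the 3 comparisons by edgeR. The GC tilt of the siFAT1-2 libraries moved with these values, and with a GC correction the median of the glycolysis genes for siFAT1-2 was -0.20 with 1 call.

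PFKP, the platelet type of phosphofructokinase and the form that many carcinomas use, changed most clearly. In HN6 it lay at 357 and 426 CPM with NC, 441 and 384 CPM with siFAT1-1 and 208 and 235 CPM with siFAT1-2. In HN30 it lay at 546 and 512 CPM with NC, 672 and 661 CPM with siFAT1-1 and 256 and 355 CPM with siFAT1-2. In both lines both siFAT1-2 libraries were below every NC and siFAT1-1 library. The log2 fold change of PFKP was -0.81 ± 0.14 (SE), with an edgeR quasi-likelihood P of 8.53e-05 and a Benjamini-Hochberg adjusted p of 0.0066 for siFAT1-2 against NC. For siFAT1-1 against siFAT1-2 it was 1.01 ± 0.14 (SE), with an edgeR quasi-likelihood P of 9.88e-06 and a Benjamini-Hochberg adjusted p of 0.00142. After GC correction the edgeR values were -0.54 with an adjusted p of 0.0289 and 0.77 with an adjusted p of 0.00344. Without the second HN6 NC library the fold change against NC was -0.74 with an adjusted p of 0.0135, edgeR.

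HK1, the hexokinase of most tissues that sits on the outer mitochondrial membrane, had the same order of siRNAs. Its values in HN6 were 397 and 342 CPM with NC, 400.0 and 337 CPM with siFAT1-1 and 221 and 215 CPM with siFAT1-2. In HN30 they were 396 and 337 CPM with NC, 515 and 524 CPM with siFAT1-1 and 264 and 344 CPM with siFAT1-2, where repeat 2 with siFAT1-2 lay within the NC range. Against NC the log2 fold change with siFAT1-2 was -0.52 ± 0.15 (SE), with an edgeR quasi-likelihood P of 0.00522 and a Benjamini-Hochberg adjusted p of 0.048. With 1 library left out at a time, this call of HK1 was lost in 10 of the 12 cases. With the repeats as a block the adjusted p was 0.0576, after GC correction 0.207 and without the second HN6 NC library 0.086, edgeR quasi-likelihood in each case. For siFAT1-1 against siFAT1-2 the log2 fold change was 0.77 ± 0.15 (SE), with an edgeR quasi-likelihood P of 3.08e-04 and a Benjamini-Hochberg adjusted p of 0.00747, and 0.60 with an adjusted p of 0.0186 after GC correction. HK2, the inducible hexokinase that HIF1A and MYC are known to raise, had log2 fold changes of 0.096 ± 0.21 (SE) and 0.11 ± 0.21 (SE) for siFAT1-1 and siFAT1-2 against NC.

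PFKFB4, a bifunctional enzyme that sets the level of the phosphofructokinase activator, was highest with siFAT1-1. In HN6 it lay at 185 and 123 CPM with NC, 217 and 209.9 CPM with siFAT1-1 and 83.9 and 105 CPM with siFAT1-2. In HN30 it lay at 51.7 and 98.6 CPM with NC, 228 and 204 CPM with siFAT1-1 and 61.9 and 100.4 CPM with siFAT1-2. Both siFAT1-1 libraries were above every other library of their line, which 4.42% of all genes tested also showed in both lines. For siFAT1-1 against siFAT1-2 the log2 fold change was 1.31 ± 0.27 (SE), with an edgeR quasi-likelihood P of 4.27e-04 and a Benjamini-Hochberg adjusted p of 0.00892. Against NC it was 0.98 ± 0.28 (SE), with an edgeR quasi-likelihood P of 0.00377 and a Benjamini-Hochberg adjusted p of 0.0778. Its paralog PFKFB3 had log2 fold changes of 0.27 ± 0.17 (SE) with siFAT1-1 and 0.28 ± 0.17 (SE) with siFAT1-2.

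SLC2A1 and ALDOA separated the siRNAs by a smaller step. SLC2A1 lay in HN6 at 356 and 349 CPM with NC, 369 and 301 CPM with siFAT1-1 and 212 and 222 CPM with siFAT1-2 and in HN30 at 539 and 502 CPM with NC, 654 and 561 CPM with siFAT1-1 and 445 and 480.0 CPM with siFAT1-2. Both siFAT1-2 libraries were lowest in each line. The log2 fold change of SLC2A1 for siFAT1-1 against siFAT1-2 was 0.50 ± 0.14 (SE), with an edgeR quasi-likelihood P of 0.00352 and a Benjamini-Hochberg adjusted p of 0.0301, and 0.36 with an adjusted p of 0.0735 after GC correction. ALDOA lay at 2247 and 2210.1 CPM with NC, 2217 and 1676 CPM with siFAT1-1 and 1401 and 1234 CPM with siFAT1-2 in HN6. In HN30 ALDOA lay at 2108 and 1987 CPM with NC, 2761 and 2663 CPM with siFAT1-1 and 1560.0 and 2050.0 CPM with siFAT1-2, where repeat 2 with siFAT1-2 exceeded an NC library. ALDOA had a log2 fold change of 0.58 ± 0.17 (SE), with an edgeR quasi-likelihood P of 0.00453 and a Benjamini-Hochberg adjusted p of 0.0351, and 0.30 with an adjusted p of 0.169 after GC correction. The calls of SLC2A1 and ALDOA were each lost in 6 of 12 cases with a library left out.

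GAPDH, the gene that the study used as reference in its qRT-PCR, fell with siFAT1-2. It lay in HN6 at 7504 and 7639 CPM with NC, 6022 and 5286 CPM with siFAT1-1 and 3872 and 4440.1 CPM with siFAT1-2. In HN30 it lay at 5400.2 and 5294 CPM with NC, 5751 and 5450.1 CPM with siFAT1-1 and 3665 and 4839.7 CPM with siFAT1-2. Both siFAT1-2 libraries were the lowest of each line. The log2 fold change for siFAT1-2 against NC was -0.60 ± 0.15 (SE), with an edgeR quasi-likelihood P of 0.00189 and a Benjamini-Hochberg adjusted p of 0.0281. After GC correction it was -0.36 with an adjusted p of 0.119, and without the second HN6 NC library -0.54 with an adjusted p of 0.0533, edgeR. With 1 library left out at a time, the call of GAPDH was lost in 7 of the 12 cases. The annotation names 65 GAPDH pseudogenes, so reads shared with these copies leave its count uncertain, as for BNIP3 (44) and PGAM1 (13). SLC2A1, PFKP, GAPDH and PKM were the members whose siFAT1-2 libraries were below every other library in both lines, a pattern that 7.83% of all genes tested showed.

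**Figure D3:**
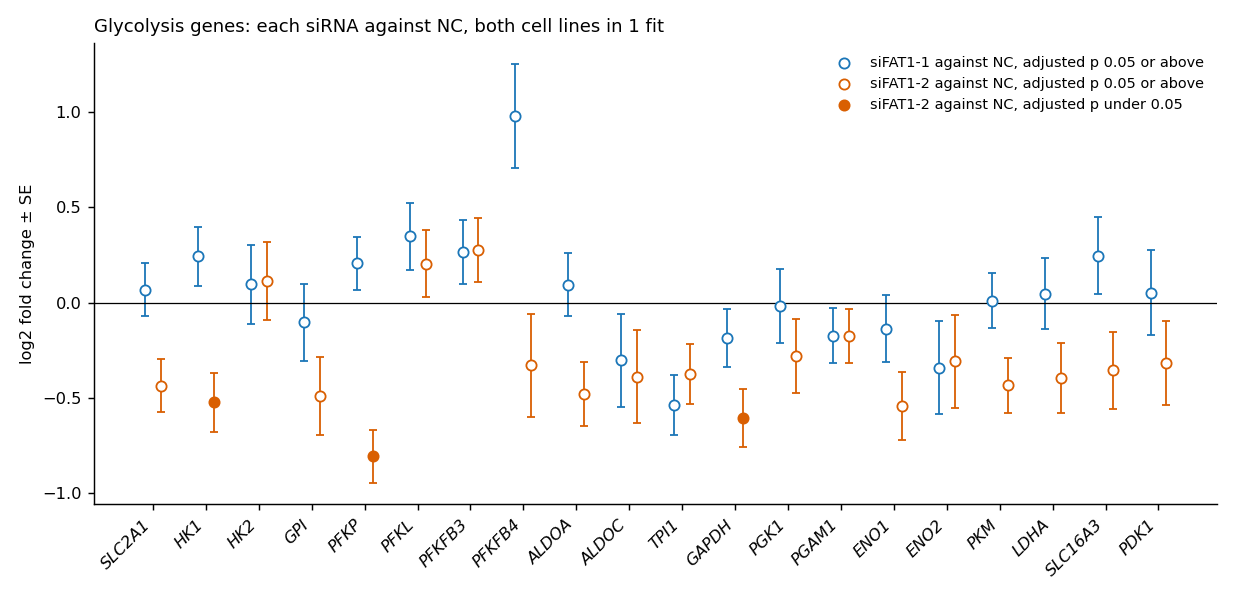
Log2 fold change with SE of the 20 glycolysis genes, in the order of the pathway, for siFAT1-1 and siFAT1-2 against NC, both fitted over 12 libraries with edgeR. Filled points, PFKP, GAPDH and HK1 with siFAT1-2, have an adjusted p under 0.05, and 17 of 20 points lie below 0 with siFAT1-2 against 8 with siFAT1-1. With 1 library left out at a time, the call of PFKP was lost in 0 of 12 cases, of GAPDH in 7 and of HK1 in 10.

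No member passed a test of knockdown within a line or of the difference between the lines by edgeR. Within HN6, 19 of 20 glycolysis genes lay below NC with a median log2 fold change of -0.39, and within HN30 8 of 20 with a median of 0.032, against -0.023 and -0.0095 for all genes. Knockdown within HN6 was tilted by GC content, from a median over all genes of 0.45 in the lowest quintile to -0.23 in the fourth, which held 13 of the 20 glycolysis genes. After GC correction the glycolysis medians were -0.24 in HN6, with 17 of 20 below 0, and 0.091 in HN30. With 1 library left out the HN30 median ran from -0.083 without the second siFAT1-2 library to 0.19 without the second NC library. Before correction, in HN6 10 had an unadjusted P under 0.05 and lay lower, where 8.24% of all genes did, and in HN30 3 lay higher, where 5.03% did. By edgeR 0 members passed an adjusted p under 0.05 in either line, where 0.00696% and 0.0557% of all genes did, against 1 in each line by DESeq2 and 0 by limma-voom. The difference between the lines was below 0 for all 20 glycolysis genes, with a median of -0.49 on the log2 scale, and all genes had a median of 0.0020. This difference carried the GC tilt too, from 0.42 over all genes in the lowest quintile to -0.20 in the highest, and after GC correction the glycolysis median was -0.37 with 19 of 20 below 0. In the test of that difference 0 members passed by edgeR, DESeq2 or limma-voom, where 0% of all genes passed, and 4 glycolysis genes had an unadjusted P under 0.05 and lay lower, where 1.92% of all genes did. The proliferation genes moved with the lines too, with a median difference of 1.000, and their part in the glycolysis values was not tested.

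The direction of the HIF targets under knockdown rested on single NC libraries in both lines. In HN30, 12 of 13 lay above NC with a median of 0.39, led by ANGPTL4 (1.25 ± 0.50 (SE), unadjusted P = 0.0307, adjusted p = 0.292, edgeR). That median was -0.015 without the first HN30 NC library and 0.68 without the second. In HN6 the median was -0.18, and it turned from -0.41 without the second NC library to 0.35 without the first. Within the first repeat of HN30 the median log2 difference of siFAT1-1 minus NC over the 13 genes was 1.17, with 7 over 2-fold higher, where 13.2% of all genes were. Within the second repeat it was 0.011, with 1 over 2-fold higher, where 8.13% of all genes were. ANGPTL4 was the 1 that stayed over 2-fold, at 2.96 and 1.68 on the log2 scale in the repeats.

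The HIF targets differed more between repeats of the same condition than the glycolysis genes did. In HN30 NC, HN30 siFAT1-2 and HN6 siFAT1-2, 6 of 13 HIF targets (46.2%) were over 2-fold apart between the repeats, where 12.6%, 15.1% and 19.6% of all genes were. In HN6 NC it was 3 of 13 (23.1%), near the 23.7% of all genes there. With siFAT1-1 it was 0 of 13 in both lines, where 5.33% and 4.85% of all genes were. No glycolysis gene was over 2-fold apart in any of the 6 conditions. The SD between repeats of the mean log2 level, pooled over the conditions, was 0.186 for the glycolysis genes and 0.5005 for the HIF targets.

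**Figure D4:**
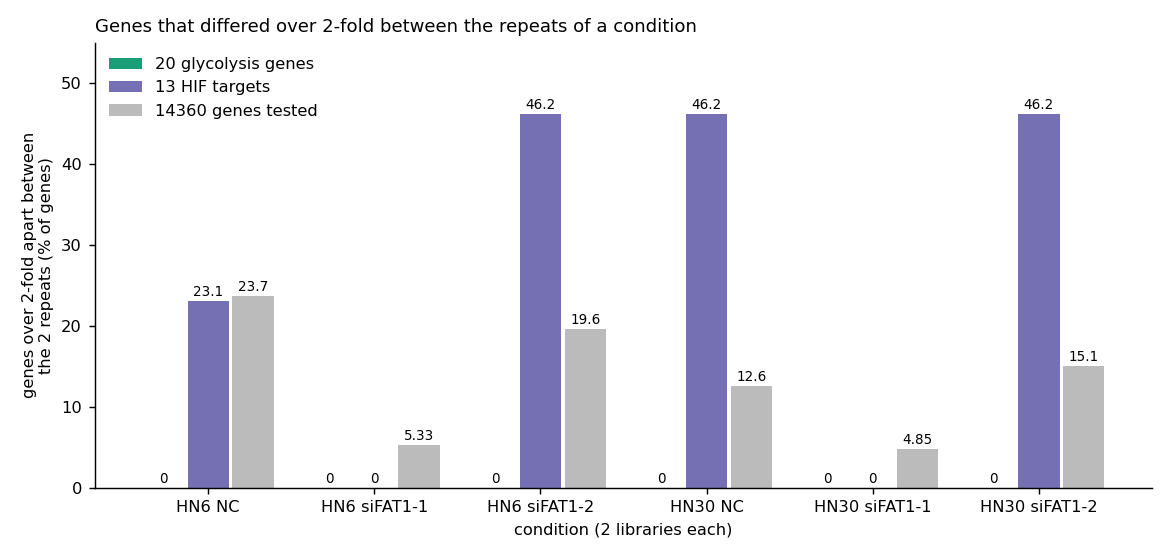
Share of genes (%, y axis) whose log2 CPM differed by more than 1 between the 2 repeats of each of the 6 conditions, for the 20 glycolysis genes, the 13 HIF targets and all genes tested. The HIF targets reach 46.2% in 3 conditions, above the bars of all genes there, and the glycolysis genes are at 0 throughout.

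In HN30 the first repeats with NC and with siFAT1-2 had the lowest levels of CA9, NDRG1, EGLN3 and VEGFA, and both siFAT1-1 repeats lay above them. The share of all genes with this order is not given here. CA9, the carbonic anhydrase that controls pH outside the cell and a standard marker of hypoxia, lay at 16.98 and 130.1 CPM with NC, 119 and 92.7 CPM with siFAT1-1 and 9.89 and 115 CPM with siFAT1-2. In HN6 it lay at 37.3 and 52.5 CPM with NC, 44.4 and 35.9 CPM with siFAT1-1 and 12.6 and 28.4 CPM with siFAT1-2. The repeats of HN30 NC were 7.66-fold apart and those of HN30 siFAT1-2 11.6-fold, against 1.28-fold with siFAT1-1. For repeat 2 against repeat 1 within HN30, over 3 pairs of libraries, its log2 fold change was 2.15 ± 0.74 (SE), with an edgeR quasi-likelihood P of 0.0182 and a Benjamini-Hochberg adjusted p of 0.926.

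NDRG1 followed CA9 in HN30, at 216 and 1152 CPM with NC, 1499 and 1091 CPM with siFAT1-1 and 345 and 1657 CPM with siFAT1-2. In HN6 it lay at 443 and 257 CPM with NC, 349.7 and 308 CPM with siFAT1-1 and 374 and 208 CPM with siFAT1-2, with the first repeat higher each time. The log2 fold change of NDRG1 for repeat 2 against repeat 1 was 1.47 ± 0.53 (SE) in HN30 (unadjusted P = 0.022, edgeR) and -0.61 ± 0.48 (SE) in HN6. ANGPTL4 lay in HN30 at 42.4 and 94.1 CPM with NC, 329.8 and 302 CPM with siFAT1-1 and 43.2 and 124 CPM with siFAT1-2. The siFAT1-1 libraries were the highest of HN30, a pattern that 19.7% of all genes tested showed there. Between the repeats ANGPTL4 differed by a log2 fold change of 0.85 ± 0.30 (SE), with an edgeR quasi-likelihood P of 0.0214 and a Benjamini-Hochberg adjusted p of 0.926. In HN6 it went the other way, at 332 and 184 CPM with NC, 237 and 182 CPM with siFAT1-1 and 295 and 145 CPM with siFAT1-2, with the second repeat lower each time (-0.75 ± 0.30 (SE), unadjusted P = 0.0323, edgeR). The share of all genes with the same order in every repeat pair of HN6 is not given here.

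EGLN3 and VEGFA, named after their values were seen, had the pattern of CA9. EGLN3, a prolyl hydroxylase that marks HIF alpha for degradation and is itself induced by HIF, lay in HN30 at 10.1 and 84.2 CPM with NC, 56.3 and 28.9 CPM with siFAT1-1 and 7.47 and 147 CPM with siFAT1-2. VEGFA, the angiogenic growth factor, lay in HN30 at 111 and 318 CPM with NC, 439.6 and 319.6 CPM with siFAT1-1 and 97.9 and 318 CPM with siFAT1-2. In HN6 the values ran from 41.9 to 103 CPM for EGLN3 and from 92.97 to 206 CPM for VEGFA. The second repeats of HN30 NC and siFAT1-2 were the high ones for both genes, and the siFAT1-1 libraries lay between for EGLN3 and level with or above them for VEGFA.

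ADM was lower in the second repeat of all 6 conditions. In HN30 it lay at 55.2 and 19.8 CPM with NC, 48.2 and 38.97 CPM with siFAT1-1 and 133 and 54.9 CPM with siFAT1-2. In HN6 it lay at 146 and 77.4 CPM with NC, 123 and 76.99 CPM with siFAT1-1 and 247 and 75.1 CPM with siFAT1-2. The first repeat with siFAT1-2 was the highest library of each line. The shares of all genes with these orders are not given here. ADM was among the genes named for the smallest p between repeats. For repeat 2 against repeat 1 in HN30 ADM had a log2 fold change of -1.02 ± 0.28 (SE), with an edgeR quasi-likelihood P of 0.00618 and a Benjamini-Hochberg adjusted p of 0.926. In HN6 it was -1.10 ± 0.28 (SE), with an edgeR quasi-likelihood P of 0.00399 and a Benjamini-Hochberg adjusted p of 0.408. The other 12 HIF targets of HN30 NC were higher in the second repeat with 1 exception, P4HA2, while all 13 HIF targets, ADM included, were lower in the second repeat of HN30 siFAT1-1.

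In HN6 the mitophagy receptors were lower in the second repeats, and the share of all genes with this order is not given here. BNIP3L lay at 272 and 53.5 CPM with NC, 154 and 114 CPM with siFAT1-1 and 266 and 125 CPM with siFAT1-2. BNIP3 lay at 407 and 194 CPM with NC, 272 and 243 CPM with siFAT1-1 and 287 and 164 CPM with siFAT1-2. For repeat 2 against repeat 1 the log2 fold change was -1.29 ± 0.33 (SE), with an edgeR quasi-likelihood P of 0.00396 and a Benjamini-Hochberg adjusted p of 0.408 for BNIP3L. For BNIP3 it was -0.68 ± 0.23 (SE), with an edgeR quasi-likelihood P of 0.0181 and a Benjamini-Hochberg adjusted p of 0.408. Without the second HN6 NC library the values were -0.77 ± 0.22 (SE) and -0.49 ± 0.25 (SE), with unadjusted P of 0.00772 and 0.0875, edgeR. In HN30, BNIP3L lay at 79.05 and 96.5 CPM with NC, 102 and 83.7 CPM with siFAT1-1 and 79.6 and 79.3 CPM with siFAT1-2 and BNIP3 at 173 and 230.4 CPM with NC, 268 and 232 CPM with siFAT1-1 and 124 and 205 CPM with siFAT1-2, with BNIP3L within a narrow range. LOX, the collagen cross-linking enzyme, lay at 65.3 and 8.77 CPM in HN6 NC and between 18.1 and 29.3 CPM in the HN6 knockdown libraries. BNIP3L and LOX, at 37.4% and 39.6% GC, belong to the lowest quintile by GC content.

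Over the 3 pairs of libraries of a line, no member passed an adjusted p under 0.05 between repeats by edgeR's quasi-likelihood test, as 0% of all genes did. In HN6 the HIF targets had a median log2 fold change of -0.56 for repeat 2 against repeat 1, and the 5 with an unadjusted P under 0.05 were all lower, where 5.88% of all genes were. In HN30 the median was 0.31, with 5 higher and 1 lower, where 2.31% and 2.29% of all genes were. The HN30 median was 0.099 without the second NC library and 0.58 without the second siFAT1-1 library. Over all 35 members the number at an unadjusted P under 0.05 was 7 in HN6 and 6 in HN30 by edgeR (12.2% and 4.6% of all genes), 7 and 6 by DESeq2 and 8 and 6 by limma-voom, with adjusted calls only from DESeq2 in HN6 (2). The remaining HIF targets were KDM3A, a histone demethylase, and ANKRD37, which ran from 38.3 to 73.8 CPM and from 0.750 to 3.01 CPM over all libraries.

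**Figure D5:**
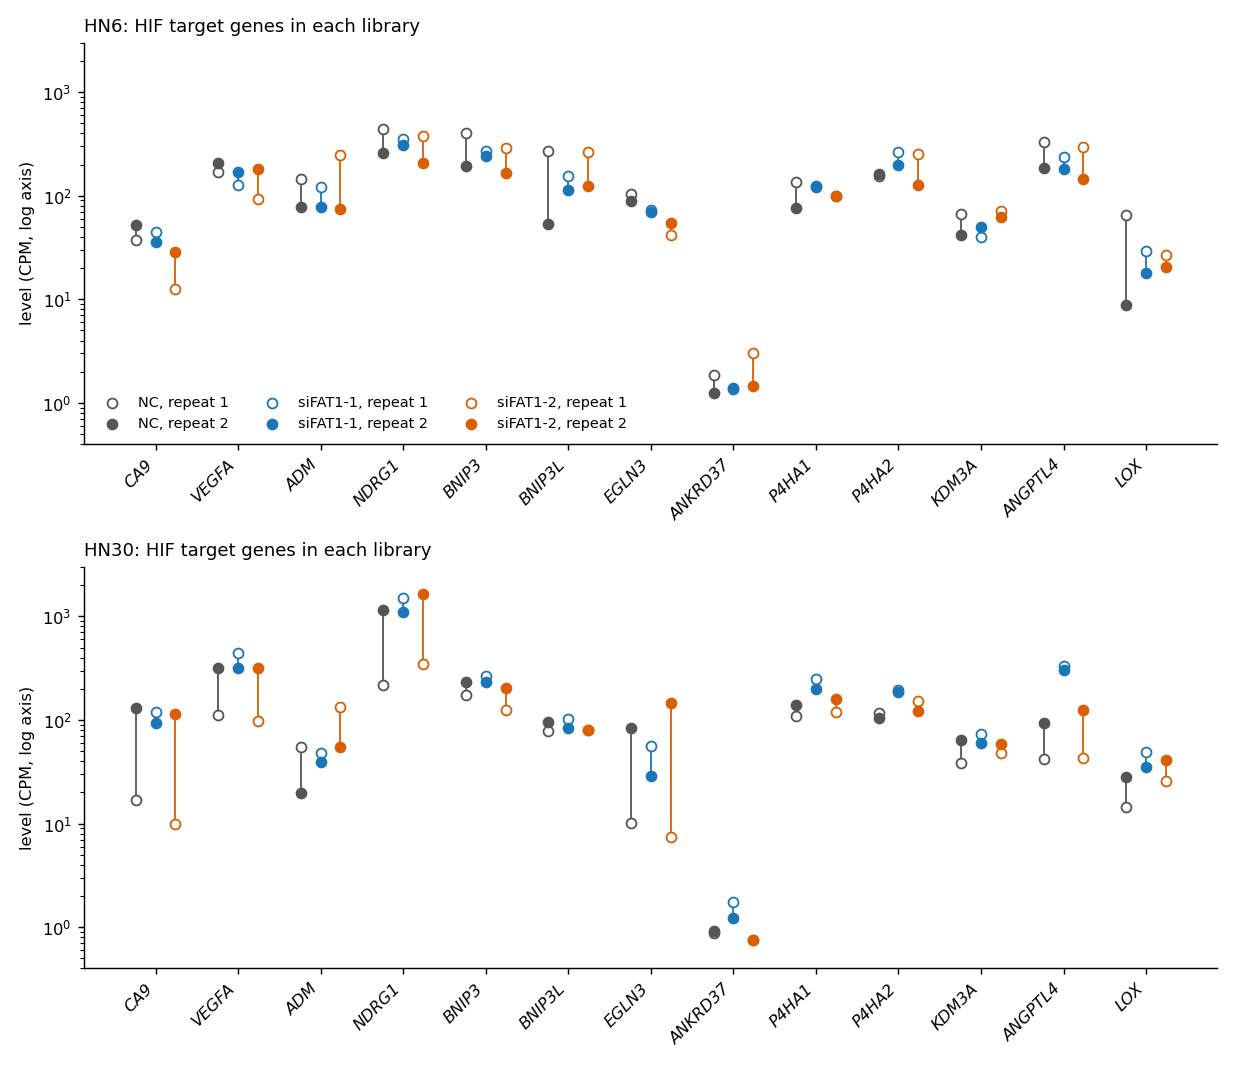
Level of the 13 HIF targets in each library (CPM, log axis), with open points for repeat 1 and filled points for repeat 2 joined by a line, by siRNA, for HN6 (top) and HN30 (bottom). In HN30, CA9 spans 16.98 and 130.1 CPM between the NC repeats and EGLN3 7.47 and 147 CPM between those with siFAT1-2, while the siFAT1-1 repeats lie close together.

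The glycolysis genes shifted less but together in 1 pair. In HN30 siFAT1-2 all 20 were higher in the second repeat, with a median log2 difference of 0.57 and all genes at 0.00. GPI, which converts glucose-phosphate to its fructose isomer, lay in HN30 at 539 and 739 CPM with NC, 686 and 687 CPM with siFAT1-1 and 396 and 709 CPM with siFAT1-2. In HN6 it lay at 550.1 and 716 CPM with NC, 561 and 471 CPM with siFAT1-1 and 337 and 411 CPM with siFAT1-2. PGK1, the first ATP-making enzyme of the pathway, lay in HN30 at 586 and 783 CPM with NC, 882 and 831 CPM with siFAT1-1 and 586 and 867 CPM with siFAT1-2 and in HN6 at 1902 and 1617 CPM with NC, 1541 and 1265 CPM with siFAT1-1 and 1245 and 1038 CPM with siFAT1-2. SLC16A3 lay in HN6 at 491 and 401 CPM with NC, 499 and 369 CPM with siFAT1-1 and 382 and 235 CPM with siFAT1-2, lower in each second repeat, with a log2 fold change of -0.48 ± 0.17 (SE) and an unadjusted P of 0.0221 by edgeR. In HN30 SLC16A3 lay at 648 and 725 CPM with NC, 993 and 996 CPM with siFAT1-1 and 487 and 739 CPM with siFAT1-2. The share of all genes lower in every second repeat of HN6 is not given here. For repeat 2 against repeat 1 in HN30, GPI had a log2 fold change of 0.43 ± 0.20 (SE), with an edgeR quasi-likelihood P of 0.0645 and a Benjamini-Hochberg adjusted p of 0.926, and PFKFB4 and PGK1 of 0.49 ± 0.25 (SE) and 0.30 ± 0.17 (SE). The median over the 20 genes in HN30 was 0.25, and 0.058 without the first siFAT1-2 library.

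HIF1A and EPAS1, the oxygen-regulated alpha subunits, were expressed in both lines. HIF1A lay in HN6 at 402 and 42.2 CPM with NC, 201 and 203 CPM with siFAT1-1 and 243 and 324 CPM with siFAT1-2. The second NC library was 9.53-fold below the first and below all other libraries. HIF1A has a GC content of 39.4%, in the lowest quintile, where the median difference between the HN6 NC repeats was -0.96 on the log2 scale. The part of GC content in the gap of HIF1A was not tested. In HN30 HIF1A lay at 499 and 602 CPM with NC, 412 and 502 CPM with siFAT1-1 and 369 and 344 CPM with siFAT1-2, where both siFAT1-2 libraries were the lowest. This order was shown in HN30 by 16.1% of all genes tested. Knockdown against NC gave HIF1A a log2 fold change of -0.16 ± 0.40 (SE), with an edgeR quasi-likelihood P of 0.687 and a Benjamini-Hochberg adjusted p of 0.878. Without the second HN6 NC library it was -0.56 ± 0.19 (SE), with an adjusted p of 0.257, edgeR. EPAS1 lay in HN6 at 137 and 219 CPM with NC, 208 and 233 CPM with siFAT1-1 and 126 and 199.5 CPM with siFAT1-2. In HN30 it lay at 213 and 198 CPM with NC, 147 and 145 CPM with siFAT1-1 and 217 and 221 CPM with siFAT1-2. In HN30 the siFAT1-1 libraries were the lowest and the siFAT1-2 libraries the highest, by a narrow margin over NC. Of all genes tested, 19.1% had the siFAT1-1 libraries lowest in HN30 and 16.3% had the siFAT1-2 libraries highest. Under knockdown against NC the log2 fold change of EPAS1 was -0.036 ± 0.20 (SE), with an edgeR quasi-likelihood P of 0.862 and a Benjamini-Hochberg adjusted p of 0.956.

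The remaining glycolysis genes are given by their fold changes. PFKL, the liver type of phosphofructokinase, had log2 fold changes of 0.35 ± 0.17 (SE) with siFAT1-1 and 0.20 ± 0.18 (SE) with siFAT1-2 against NC. TPI1 had -0.54 ± 0.16 (SE) and -0.37 ± 0.16 (SE), and was the glycolysis gene that lay lowest with siFAT1-1. LDHA had 0.048 ± 0.18 (SE) and -0.39 ± 0.18 (SE), ENO1 -0.14 ± 0.18 (SE) and -0.54 ± 0.18 (SE), PGAM1 -0.17 ± 0.14 (SE) and -0.18 ± 0.14 (SE), and PDK1 0.053 ± 0.22 (SE) and -0.32 ± 0.22 (SE). None of these passed an adjusted p under 0.05 by edgeR in a comparison with NC.

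Other genes of the same pathways were counted from lists apart from the 35. Of 29 further HIF targets, 3 rose and 0 fell with siFAT1-1 against NC, and 2 rose and 2 fell with siFAT1-2, at an adjusted p under 0.05 by edgeR, where 3.15% and 11.3% of all genes changed in either direction. Of 25 further glycolysis and pyruvate genes that could be tested, 1 rose and 1 fell with siFAT1-2, and 0 with siFAT1-1. PDK4, a paralog of PDK1, lay at 2.59 and 2.71 CPM with NC and at 3.51 and 6.30 CPM with siFAT1-1 and 8.88 and 9.53 CPM with siFAT1-2 in HN6, and had 0 counts in all 6 HN30 libraries. Its log2 fold change for knockdown against NC was 1.38 ± 0.51 (SE), with an unadjusted P of 0.0267, edgeR. TMEM45A, a transmembrane gene induced in hypoxia, had 1.07 ± 0.38 (SE) in that comparison, and ATF3, a stress transcription factor of the ATF4 list, 1.14 ± 0.37 (SE).

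Between the repeats of HN6, CITED2, a competitor of HIF1A for its coactivator, lay lower in the second (-1.28 ± 0.32 (SE)), while IGFBP3 (1.54 ± 0.48 (SE)), HKDC1 (1.74 ± 0.52 (SE)), GAPDHS (1.31 ± 0.43 (SE)), SIAH2, a ubiquitin ligase of the prolyl hydroxylases (1.11 ± 0.48 (SE)), and PSAT1, of serine synthesis (1.13 ± 0.35 (SE)), lay higher. The mitotic genes AURKA, CCNB1 and AURKB were higher in the second repeats too, by 1.19 ± 0.40 (SE), 1.47 ± 0.50 (SE) and 1.10 ± 0.40 (SE) on the log2 scale. In HN30 ASNS (1.11 ± 0.35 (SE)) and ARNT2 (1.23 ± 0.50 (SE)) were higher in the second repeats. None of these passed an adjusted p under 0.05 by edgeR, and each had an unadjusted P under 0.05. Of the 12 proliferation genes, 11 lay higher in the second repeats of HN6 and 12 in those of HN30, with median log2 fold changes of 0.87 and 0.75. Their part in the differences of the HIF targets was not tested. Of 7 pentose phosphate genes, 1 rose and 3 fell with siFAT1-2 at an adjusted p under 0.05, edgeR, where 11.3% of all genes changed and 7.12% fell, in the comparison that was tilted by GC content. DDIT4, a HIF-induced inhibitor of mTOR named after its values were seen, lay in HN30 at 15.7 and 425 CPM with NC, 699 and 397 CPM with siFAT1-1 and 30.1 and 684 CPM with siFAT1-2, with the first repeats of NC and siFAT1-2 below the second, as for CA9.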

How the data were processed

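Poly(A) RNA of 12 libraries was sequenced, 2 repeats of each of 6 conditions. Reads that were duplicated, of low quality or rich in N were discarded by the authors, who aligned what remained to hg38 and deposited raw whole-number counts for each gene. The submitters' processing notes name HISAT2 and featureCounts with no version, while annotation and strand setting are not given in the sources used here, which leaves overlapping and near-identical genes uncertain. Removal of duplicated reads can lower the counts of the most abundant genes. No per-sample column was left out (0), and groups were taken from the sample labels.

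Differences were tested in R 4.3.3 with edgeR 4.0.16 (TMM, filterByExpr with a minimum count of 10 over the 6 conditions, glmQLFit and glmQLFTest, prior count 0.125) over all 14360 genes, with Benjamini-Hochberg adjustment. Cell line was a term for knockdown and each siRNA, the 6 condition means were fitted within lines, and a repeat term within each line was added for the repeats. The SE given with an edgeR log2 fold change is the size of that change divided by the square root of its quasi-likelihood F statistic. Log2 CPM used a prior count of 2. Genes were matched by symbol to GENCODE 44 on GRCh38 (18278 of 19225), and their GC content and exon length come from it. Alternatives used DESeq2 1.42.0, limma 3.58.1 (voom), other size factors, no filter, a replicate block, libraries left out in turn and, added after seeing the data, a loess correction for GC content (span 0.5). Steps were tested on simulated data. Python 3.11.15 was used for summaries and plots, with pandas 2.3.3, numpy 2.4.6 and matplotlib 3.10.9.

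The series' design text says that the experiment was repeated at a separate time, so the repeat numbers pair the libraries within a line. The deviations of same-numbered libraries correlated across genes by 0.0800, 0.216 and 0.221 in HN6 and by -0.0312, 0.393 and -0.0252 in HN30. The members and lists were chosen with earlier results of these data known. Given with every library's value were members past an adjusted p under 0.05 between siRNAs and NC, the 3 glycolysis genes and 3 HIF targets with the smallest p between lines and between the repeats of each line, and both HIF alpha subunits. From each other list up to 3 genes were named, with the smallest p among those that met P under 0.05 and a log2 fold change beyond 1 in size for knockdown against NC or between repeats. Other genes named were chosen after their values were seen.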

Additional observations from a re-analysis of the deposited data

Results flagged for a closer look

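In 6 of 74 groups of 4 knockdown libraries of a line, 1 library lay apart from the other 3 by more than Dixon's test allows at its 95% level, and chance alone flags about 1 in 20 groups. All of them came from siFAT1-2 libraries, 5 from a first repeat and 1 from a second. In HN6 the first siFAT1-2 library was the high one for PFKFB3, at 76.5 CPM against 67.9 CPM in the nearest library, and for ANKRD37, at 3.01 CPM against 1.45 CPM. In HN30 the first siFAT1-2 library was the low one for GPI, at 396 CPM against 686 CPM, and for ENO1, at 2038 CPM against 3278 CPM. It was the high one for ADM, at 133 CPM against 54.9 CPM. The second HN30 siFAT1-2 library was the high one for TPI1, at 1035 CPM against 777 CPM. The 4 libraries hold both siRNAs, so that a library can stand apart from the others by its siRNA as well as by its repeat.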

How the results depend on the processing

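The counts of members called changed with the tool, the GC correction and single libraries. Shares of all genes called are given for the main edgeR fits only. Counts from other settings, here and above, have no such share beside them. With the DESeq2 Wald test the members past an adjusted p under 0.05 numbered 3 for siFAT1-1 against NC, 6 for siFAT1-2 against NC, 8 for siFAT1-1 against siFAT1-2, 1 and 1 for knockdown within HN6 and HN30 and 2 for the repeats of HN6. In simulated data DESeq2 made 26 false calls for knockdown against NC, where edgeR made 9, and 42 against 5 for the repeats of HN6. The simulation held less spread than the real fit of knockdown against NC, as given below. With the GC correction, chosen after seeing the data, the count for siFAT1-2 against NC was 1. With the GC correction and the replicate block together it was 1 for siFAT1-1 against NC and 8 between the siRNAs. Without a cell line term it was 0 for siFAT1-2 against NC and 0 between the siRNAs. With the NC libraries alone, HN6 against HN30 gave 3 members and a median over the glycolysis genes of 0.13. Without the 10 most abundant genes of each library, some of them glycolysis genes, the median share of counts on the glycolysis genes was 1.21%. Limma-voom, DESeq2's size factors and the absence of a filter left each of these counts within 1.5 times. The cause of the moves was not tested.

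With the repeats as a replicate block, since the repeat number marks a separate time, the counts were 2 for siFAT1-2 against NC, where HK1 lost its call, 6 between the siRNAs and 17 between the lines, and 0 for siFAT1-1 and for knockdown against NC. When 1 library was left out, the counts ran from 0 to 1 for siFAT1-1 against NC, 1 to 8 for siFAT1-2 against NC, 3 to 11 between the siRNAs, 0 to 2 for knockdown within HN6 and 0 to 1 for the difference between the lines. The highest counts came without the second HN30 siFAT1-2 library (siFAT1-2 against NC and between siRNAs) and without the first HN6 NC library (the others). The median over the HIF targets ran from -0.41 to 0.35 within HN6 and from -0.80 to -0.065 for the difference between the lines, each highest without the first HN6 NC library. It ran from -0.015 to 0.68 within HN30, from -0.053 to 0.47 for knockdown against NC and from 0.099 to 0.58 between the repeats of HN30, and that over the glycolysis genes between the repeats of HN30 from 0.058 to 0.39. No value changed its sign and stayed called. Of the single-gene values tried, 416 kept their call and 104 lost it.

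With 2 repeats a condition, a change had to be large against the spread left in its fit to pass. In simulated data edgeR recovered 48 of 87 changes of 1 on the log2 scale for knockdown against NC. For the repeats of HN6 it recovered 9 of 102. The simulated counts took their spread from the fit with condition and repeat terms. Its common dispersion, a measure of spread beyond counting noise, was 0.0823, against 0.143 for knockdown against NC. The simulation held no background difference between lines, between siRNAs or by GC content. Its recovery and false calls can therefore be too favourable for these data. Library totals were 26430049 counts or more, and their part in the calls was not tested. ANKRD37 and, in HN6, ALDOC lay at a few CPM.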
